A study of Mus musculus with 2 samples.

Results

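Mir99a, Mir99b, Mir100, Mir125a, Mir125b-1 and Mir125b-2 are the miR-99/100 and miR-125 genes that lie beside a let-7 gene in the mouse genome. They were taken by name, with no threshold on their counts, and are 6 of the 2202 miRNA genes in the tables. Total RNA of left cerebral cortex from 5xFAD/CAST females, adults aged 8 to 10 months, was sequenced for microRNAs, with a library size range below 30 nt. The 2 libraries, replicate 2 and replicate 1, form 1 group. Their labels point to 1 donor record and 2 tissue records, so whether 2 animals were used is not known. 5xFAD mice carry mutant human amyloid precursor protein and presenilin transgenes driven in neurons by the Thy1 promoter, and amyloid plaques form in their brain. Every sample carries that label, so these levels have no transgene-free counterpart, and replicate 2 against replicate 1 compares those libraries, not conditions.

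The miR-99/100, let-7 and miR-125 genes stand side by side in many animals, and mammals hold several copies of the trio. A mature miRNA guides the Argonaute protein to messenger RNAs chiefly through its seed, bases 2 to 8, so the 3 families address different targets from neighbouring hairpins. MiR-99/100 is known to repress Mtor, the growth kinase. MiR-125 is the relative of lin-4, the developmental timing miRNA of the worm Caenorhabditis elegans. With let-7 it represses Lin28, the RNA-binding protein that in turn blocks let-7 maturation. In neurons miR-125a is known to act on the message of Dlg4, the postsynaptic scaffold PSD-95, and miR-125b on that of Grin2a, an NMDA receptor subunit.

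The mature sequences below show which arms are the same or alike between genes. They are RefSeq entries on GRCm38.p6, written 5′ to 3′, with the seed in capitals. All 6 genes had an entry, with 12 arms in all under 11 names, since miR-125b-5p stands for both Mir125b genes. The main arms of the miR-99/100 genes share the seed ACCCGUA.
miR-99b-5p: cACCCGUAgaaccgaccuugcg
miR-99a-5p: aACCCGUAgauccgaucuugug
miR-100-5p: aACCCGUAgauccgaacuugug
Those of the miR-125 genes share the seed CCCUGAG.
miR-125a-5p: uCCCUGAGacccuuuaaccuguga
miR-125b-5p: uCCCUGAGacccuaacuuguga
The 3p arms of the Mir125b genes differ from each other.
miR-125b-1-3p: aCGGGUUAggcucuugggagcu
miR-125b-2-3p: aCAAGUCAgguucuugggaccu
The let-7 arms beside them carry the seed GAGGUAG.
let-7e-5p: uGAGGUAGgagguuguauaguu
let-7c-5p: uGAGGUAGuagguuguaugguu

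Counted from the 5′ end and with the base of miR-99a-5p first, miR-100-5p differs from miR-99a-5p by the single substitution U16A. MiR-99b-5p differs from miR-99a-5p at 4 positions, A1C, U11A, U16C and U21C. MiR-125a-5p and miR-125b-5p share their first 13 bases. With the base of miR-125b-1-3p first, the 3p arms of the Mir125b genes differ by G3A, G4A, U7C, C11U and G20C. MiR-99a-3p and miR-99b-3p also share a seed, AAGCUCG, while miR-100-3p has CAAGCUU.

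No window of 18 bases in the hairpins of Mir99b, Mir99a, Mir100, Mir125a or Mirlet7e occurs in another annotated miRNA hairpin. The 5p arm of Mir125b-1 and Mir125b-2 is the same, and all 5 of its windows occur in the other gene. Of 60 windows along the Mir125b-1 hairpin and 54 along the Mir125b-2 hairpin, 7 each are shared, and their 3p arms share none. Reads mapping to several places stand in a row of their own and are in no gene's count. A read that ends within the 5p arm of miR-125b therefore has an equal match at both genes, and the counts of Mir125b-1 and Mir125b-2 are uncertain. The rows sum both arms, so 5p and 3p reads cannot be separated. For the Mir125b genes, reads within the common 5p arm are missing. Their rows hold 3p reads or reads that run past the shared stretch, in unknown proportion.

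The libraries held 5162369 counts on the strand of miRNA genes in replicate 2 and 4226300 in replicate 1. These made up 32.4% and 32.6% of all reads in those tables. Values are in CPM, counts scaled to a total of 1000000 such counts per library, and each error is the SD over the 2 libraries. Each read is 1 small RNA, so CPM carries no length term, and dividing by hairpin length left the order of the 6 genes as it was. Whether small RNAs of different sequence were captured equally was not tested, so comparisons between genes are of read counts. In bulk tissue, fewer cells of a type and less RNA per cell cannot be told apart. Intervals cover counting error only. All 6 neuronal marker genes had at least 10 CPM in both libraries. Mir137, which acts in neuronal maturation, stood at 5769 CPM in replicate 2 and 6008 CPM in replicate 1. The 2 astrocyte, 2 oligodendrocyte, 3 endothelial and mural and 3 choroid plexus markers also reached 10 CPM in both. Of the others, 2 of 3 microglial, 2 of 3 blood, 3 of 5 epithelial and 0 of 4 pluripotent markers did. This level therefore does not single out neurons.

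Together the 6 genes took 3.33% of the counts in replicate 2 (Wilson 95% interval 3.32 to 3.35) and 3.35% in replicate 1 (3.33 to 3.37), or 3.34% ± 0.0133 (SD, n = 2). The summed share thus differed little between the libraries. The shares of its parts did not stay level in the same way. The miR-99/100 genes took 2.56% in replicate 2 and 2.01% in replicate 1, and the miR-125 genes took 0.771% and 1.34% in those libraries. Counts of the miR-125 genes were 0.301 of those of the miR-99/100 genes in replicate 2 (exact 95% counting interval 0.298 to 0.304) and 0.667 in replicate 1 (0.660 to 0.674). Reads within the common main arm of the Mir125b genes are missing from these counts. The ratios are therefore lower limits if no reads of the miR-99/100 genes were lost, and the shares that include the Mir125b genes are uncertain. The intervals do not cover this loss.

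Among the miR-99/100 genes, Mir99a had the most counts. Mir99a (ENSMUSG00000065530.1) lies on mm10 chromosome 16 from 77598936 to 77599000, plus strand, in an intron of the noncoding host gene Mir99ahg. Its counts were 73987 in replicate 2 and 54881 in replicate 1, equal to 14332 and 12986 CPM, with a mean of 13659 ± 952 CPM (SD, n = 2). It ranked 14 among all miRNA genes in each library, and its assigned counts were the highest of the 6 genes in each. Mir100 (ENSMUSG00000093011.1) lies on chromosome 9 from 41531425 to 41531504, plus strand, in introns of the noncoding genes 3110039I08Rik and Gm49317 and opposite an exon of Gm48742. It had 24195 counts in replicate 2, against 18071 in replicate 1, or 4687 and 4276 CPM, with a mean of 4481 ± 291 CPM (SD, n = 2). Its rank was 42 in each library. Mir99a and Mir100 come from different chromosomes and their main arms differ by 1 base, and the ratio of their counts was nearly the same in both libraries. That ratio was 3.06 in replicate 2 (exact 95% counting interval 3.01 to 3.10) and 3.04 in replicate 1 (2.99 to 3.09).

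Mir99b (ENSMUSG00000065396.1) lies on chromosome 17 from 17830188 to 17830257, plus strand, in an intron of the protein-coding gene Spaca6, whose product acts in sperm-egg fusion. It had 34004 counts in replicate 2, against 11994 in replicate 1, or 6587 and 2838 CPM, with a mean of 4712 ± 2651 CPM (SD, n = 2). It was thus higher in replicate 2, with rank 28 there and rank 55 in replicate 1. Mir99a stood 2.18 times above Mir99b in replicate 2 and 4.58 times above it in replicate 1.

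Among the miR-125 genes, Mir125a (ENSMUSG00000065479.2) had the most counts assigned to a single gene. Reads within the common main arm of the Mir125b genes are in no gene's count. The level of Mir125a therefore cannot be ranked against theirs. Mir125a lies on chromosome 17 from 17830812 to 17830879, plus strand, and overlaps an annotated exon of Spaca6. Its counts were 33789 in replicate 2 and 51938 in replicate 1, equal to 6545 and 12289 CPM, with a mean of 9417 ± 4062 CPM (SD, n = 2). Its rank was 29 in replicate 2 and 17 in replicate 1, so it was lower in replicate 2, where Mir99b was higher.

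Mir125b-1 (ENSMUSG00000093354.1) lies on chromosome 9 from 41581926 to 41582002, plus strand, in introns of 3110039I08Rik and Gm49317 and within an exon of Gm28119. There were 5149 counts in replicate 2, against 3499 in replicate 1, or 997 and 828 CPM, with a mean of 913 ± 120 CPM (SD, n = 2). Mir125b-2 (ENSMUSG00000065472.1) lies on chromosome 16 from 77646273 to 77646343, plus strand, in an intron of Mir99ahg, and overlaps an exon of C130023A14Rik on the same strand. There were 863 counts in replicate 2, against 1215 in replicate 1, or 167 and 287 CPM, with a mean of 227 ± 85.1 CPM (SD, n = 2). Mir125b-1 stood 5.97 times above Mir125b-2 in replicate 2 (exact 95% counting interval 5.55 to 6.42) and 2.88 times in replicate 1 (2.70 to 3.08). Because reads within the common 5p arm match both genes, these counts give no level for miR-125b as a whole.

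By mean level of the counts assigned to each gene, the order was Mir99a, Mir125a, Mir99b, Mir100, Mir125b-1 and Mir125b-2. The places of the Mir125b genes are uncertain, because reads within their common main arm are in no gene's count. The library values of Mir125a and Mir99b overlapped, as did those of Mir99b and Mir100, so these neighbours did not differ beyond their spread. In replicate 2 Mir99b was above Mir100, and in replicate 1 it was below it. Mir99a and Mir125a did not overlap, although 12986 CPM for Mir99a and 12289 CPM for Mir125a in replicate 1 were close. In these assigned counts, Mir100, Mir125b-1 and Mir125b-2 stood apart from each other in both libraries.

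**Figure D1:**
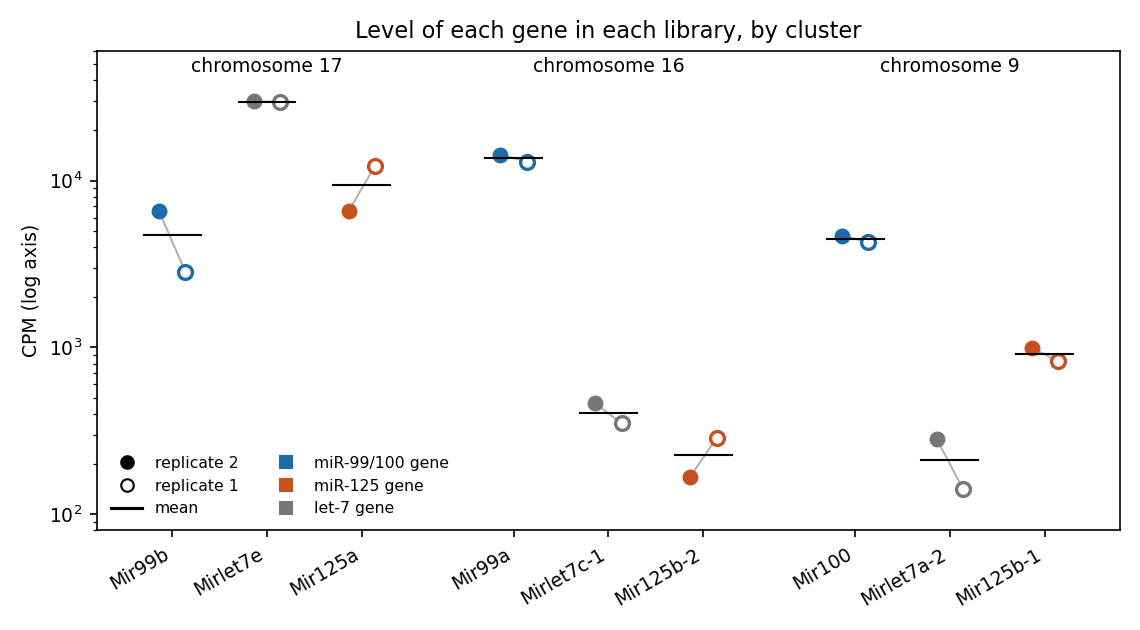
Level in CPM (log axis) of the 6 genes and the let-7 gene of each cluster, with filled points for replicate 2, open points for replicate 1 and a bar at their mean. Mir99b and Mir125a move in opposite directions between the libraries, while Mirlet7e beside them, Mir99a and Mir100 stay close.

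The clusters differ in size. On chromosome 17, Mir99b, Mirlet7e and Mir125a lie within 692 bases, with 94 bases between Mir99b and Mirlet7e and 367 bases between Mirlet7e and Mir125a. On chromosome 16, Mir99a and Mirlet7c-1 are 656 bases apart and Mir125b-2 follows after a further 46.5 kb. On chromosome 9, Mir100 and Mirlet7a-2 are 5.2 kb apart and Mir125b-1 follows after 45.1 kb. All 9 hairpins are on the plus strand.

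**Figure D2:**
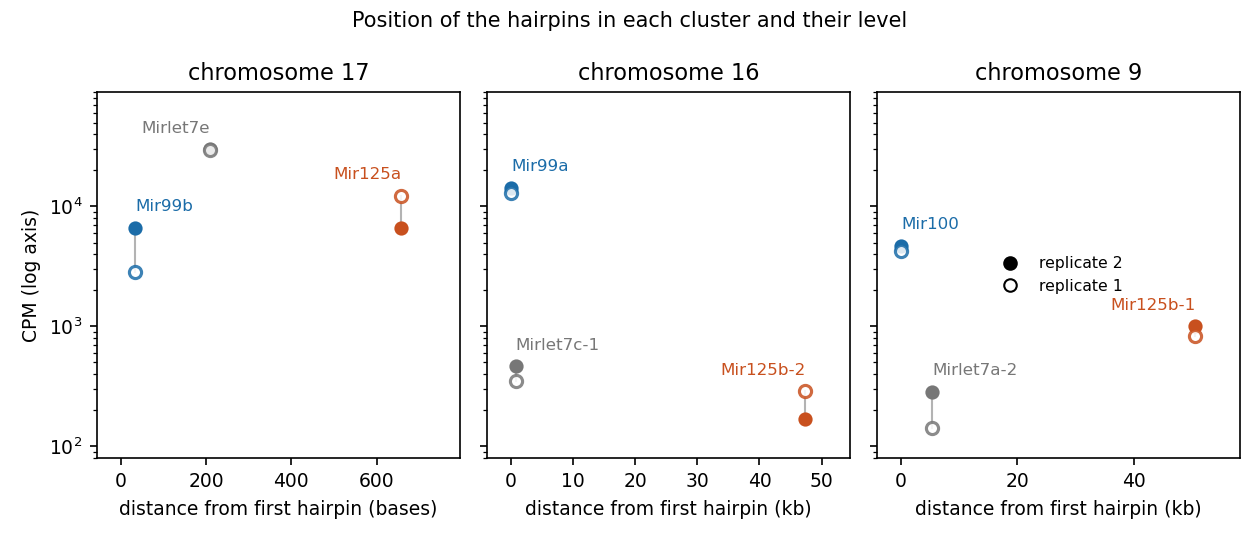
Level in CPM (log axis) against the distance from the start of the first hairpin, in bases for chromosome 17 and in kb for chromosomes 16 and 9, with filled points for replicate 2 and open points for replicate 1. The let-7 gene is the highest of its cluster on chromosome 17, at 29866 CPM in replicate 2 and 29549 CPM in replicate 1. On chromosomes 16 and 9 its counts lie below those of the miR-99/100 gene. That order is uncertain, because reads matching several let-7 genes are in no gene's count.

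Ratios of counts within a library need no library scaling. Mir99b had 0.221 counts per count of Mirlet7e in replicate 2 (exact 95% counting interval 0.218 to 0.223) and 0.0960 in replicate 1 (0.0943 to 0.0979). Mir125a had 0.219 per count of Mirlet7e in replicate 2 (0.217 to 0.222) and 0.416 in replicate 1 (0.412 to 0.420). Both partners thus stood well below Mirlet7e, whose main arm also has no 18-base window in another hairpin. Mir125a and Mir99b were nearly equal in replicate 2, with 0.994 counts of Mir125a per count of Mir99b (0.979 to 1.01). In replicate 1 that ratio was 4.33 (4.25 to 4.42), so the ratio of the outer hairpins of the cluster was not stable between libraries.

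On chromosome 16, Mir99a had 31.0 counts per count of Mirlet7c-1 in replicate 2 (29.7 to 32.3) and 37.1 in replicate 1 (35.2 to 39.1). Mir125b-2 had 0.361 per count of Mirlet7c-1 in replicate 2 and 0.821 in replicate 1. On chromosome 9, Mir100 had 16.6 counts per count of Mirlet7a-2 in replicate 2 (15.7 to 17.5) and 30.3 in replicate 1 (27.9 to 33.0). Mir125b-1 had 3.52 in replicate 2 and 5.87 in replicate 1 per count of Mirlet7a-2. Mirlet7c-1 and Mirlet7a-2 share 9 hairpin windows of 18 bases each with other let-7 genes, so their counts and these ratios are uncertain. Across the 9 genes, those with no shared window had 4687 to 29866 CPM in replicate 2 and 2838 to 29549 CPM in replicate 1. The 4 genes with shared windows had 167 to 997 CPM in replicate 2 and 141 to 828 CPM in replicate 1.

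Within the clusters, the ratio of the miR-125 gene to the miR-99/100 gene changed least on chromosome 9. Mir125b-1 had 0.213 counts per count of Mir100 in replicate 2 (0.206 to 0.219) and 0.194 in replicate 1 (0.187 to 0.201). Mir125b-2 had 0.0117 counts per count of Mir99a in replicate 2 and 0.0221 in replicate 1. Reads within the common main arm of the Mir125b genes are missing from these counts, so the ratios with Mir125b-1 and Mir125b-2 are uncertain.

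Between the libraries, Mir99b and Mir125a moved most among the 6 genes, in opposite directions. Folds are scaled by the trimmed mean of M-values (TMM), which sets library sizes by the bulk of the genes, with 0.5 counts added to each library. Mir99b was 2.27-fold higher in replicate 2 (exact 95% counting interval 2.22 to 2.32), a log2 ratio of 1.18. Mir125a was lower in replicate 2, with a log2 ratio of -0.94, or 1.92-fold higher in replicate 1 (1.89 to 1.95). Mir125b-2 had a log2 ratio of -0.81, or 1.76-fold higher in replicate 1 (1.61 to 1.92). This fold covers only reads assigned to Mir125b-2, since reads within the main arm it shares with Mir125b-1 are in no gene's count. The remaining genes differed by less, with log2 ratios of 0.24 for Mir125b-1, 0.11 for Mir99a and 0.10 for Mir100. Of the let-7 genes beside them, Mirlet7a-2 had a log2 ratio of 0.97, Mirlet7c-1 of 0.37 and Mirlet7e of -0.02, whose sign turned with other scalings.

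Genes whose counts summed to 10 or more over the libraries went into an exact binomial test, two-sided, against the TMM-scaled library sizes. All 6 genes passed this filter, and all 6 were called at an adjusted p under 0.05 with Benjamini-Hochberg adjustment over 546 tested genes. Of these calls 4 were towards replicate 2 and 2 towards replicate 1. Among all tested genes 58.8% were called, 24.5% towards replicate 2 and 34.2% towards replicate 1. Among the 90 genes that summed to 10000 counts or more, 96.7% were called, so a call at this depth says little about these genes. The exact binomial adjusted p was no higher than 1e-300 for Mir99b and Mir125a and stood at 3.3e-12 for Mir100, the highest of the 6. The test allows for counting error alone. The edgeR exact test, run with a biological coefficient of variation (BCV) fixed at 0.1, called 3 of them, against 28.8% of all tested genes. These were Mir99b at an adjusted p of 2.4e-07, Mir125a at 5.8e-05 and Mir125b-2, in its assigned counts, at 0.0013 in the edgeR exact test. The others had adjusted p of 0.42 for Mir125b-1, 0.76 for Mir99a and 0.79 for Mir100 in that test.

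The median log2 ratio was 0.11 over the 6 genes and -0.07 over all tested genes. In size, the median log2 difference between the libraries was 0.35 over those 90 genes. By size of that difference Mir99b stood at place 7 of these 90 genes and Mir125a at place 14. Mir99a stood at place 74 and Mir100 at place 76, among the smaller differences.

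**Figure D3:**
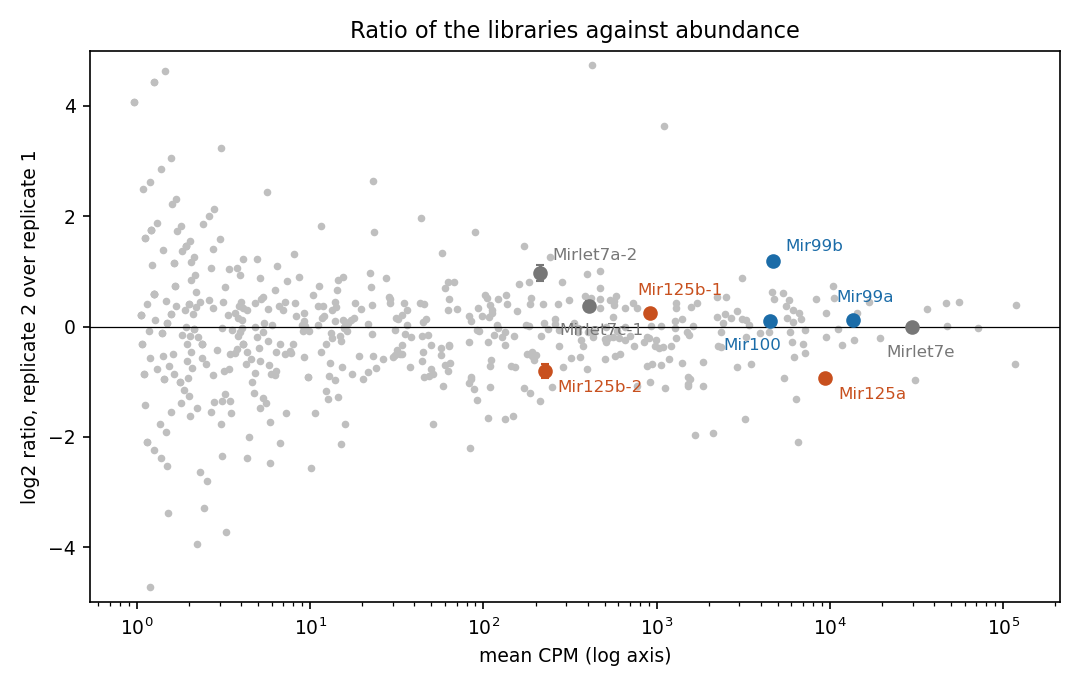
Log2 ratio of replicate 2 over replicate 1 against mean CPM (log axis) for the 546 tested genes in grey, with the 6 genes and the let-7 genes of their clusters in colour and exact 95% counting intervals as bars. Mir99b at 1.18 and Mir125a at -0.94 lie on opposite sides of 0, and 8 of the tested genes lie outside the axis range of 5 in either direction. The points of Mir125b-1 and Mir125b-2 rest on assigned counts, without reads within their common main arm.

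Neighbouring hairpins can be cut from 1 primary transcript, so the opposite movement of Mir99b and Mir125a was set beside that of other close pairs. This pair was picked because its genes moved in opposite directions, so a large difference was built into the choice. The limits used here were also chosen after these values were seen. The pairs were miRNA genes on the same strand with a gap of at most 10 kb and 1000 or more summed counts each, which gave 180 pairs from 88 genes. They share genes and are not independent, and 146 of them lie on chromosome 12, where the imprinted Dlk1-Dio3 region holds many miRNA genes. The log2 ratios of Mir99b and Mir125a differed by 2.12, a 4.36-fold change of their ratio across a gap of 554 bases, against a median difference of 0.62 over all pairs. It was the pair with place 4 by size of the difference among the 180, and place 1 among the 34 outside chromosome 12. Mir99b and Mirlet7e differed by 1.20, Mirlet7e and Mir125a by 0.92, and Mir100 and Mirlet7a-2 by 0.87. Mir99a and Mirlet7c-1, 656 bases apart, differed by 0.26, below the median. With gaps of up to 50 kb, Mir99b and Mir125a held place 9 of 383 pairs and place 2 of the 42 outside chromosome 12.

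**Figure D4:**
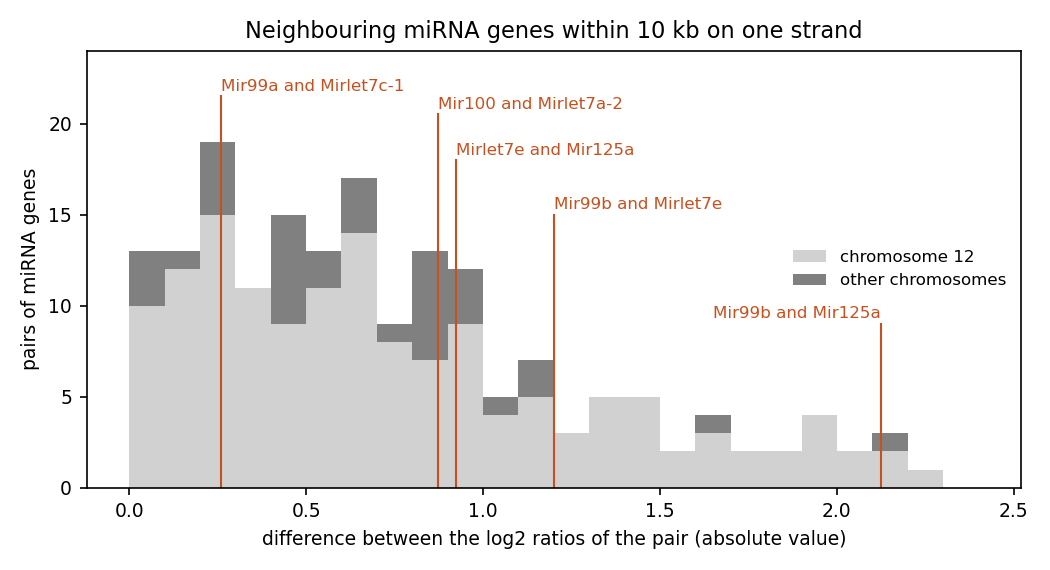
Histogram of the absolute difference between the log2 ratios (replicate 2 over replicate 1) of 2 miRNA genes within 10 kb on the same strand, for 180 pairs, in light grey for chromosome 12 and dark grey elsewhere. Vertical lines mark the pairs of the clusters studied. Mir99b and Mir125a lie at 2.12, in the right tail, and Mir99a and Mirlet7c-1 at 0.26.

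Marker genes of several cell types also differed between the libraries. Windows shared with other hairpins were not looked for in the marker genes, so their counts may also lack reads that match several places. The summed neuronal markers took 4.28% of the counts in replicate 2 and 6.74% in replicate 1. Mir132 alone gave 109386 of the 220758 neuronal marker counts in replicate 2 and 171492 of 284678 in replicate 1. Of the 6 neuronal markers, 5 were called towards replicate 1, or 3 with DESeq2 size factors. Their log2 ratios were uneven, at -1.32 for Mir128-1, -0.97 for Mir132, -0.61 for Mir129-1, -0.09 for Mir137 and -0.06 for Mir383. Mir138-1 went the other way, at 0.15, and was called towards replicate 2. The 3 endothelial and mural markers took 1.93% and 1.33%, the 3 blood markers 0.0887% and 0.00724%, and the 3 choroid plexus markers 0.134% and 0.0794% in replicate 2 and replicate 1. The 2 astrocyte markers took 2.87% and 3.36%, the 2 oligodendrocyte markers 0.533% and 0.709%, the 3 microglial markers 0.126% and 0.152%, and the 5 epithelial markers 0.0156% and 0.0406% in that order of libraries. Of the endothelial and mural markers, Mir126a and Mir143 were called towards replicate 2 and Mir145a towards replicate 1. Of the blood markers, Mir451a and Mir144 were called towards replicate 2 and Mir486 towards replicate 1, and Mir451a gave 4240 of the 4579 blood counts in replicate 2. All 3 choroid plexus markers were called towards replicate 2. Both astrocyte markers, both oligodendrocyte markers, 2 of 3 microglial markers and all 5 epithelial markers were called towards replicate 1. Among all tested genes, 34.2% were called towards replicate 1 and 24.5% towards replicate 2, in a test that allows for counting error alone. The pluripotent markers Mir302a to Mir302d had 1 count in replicate 2 and 1786 in replicate 1, and Mir302a, Mir302c and Mir302d were at 0 in replicate 2. The part of cell composition, or of a technical difference between the libraries, in the differences of Mir99b, Mir125a and Mir125b-2 was not tested.

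Of the let-7 family outside the 3 clusters, calls were made for 5 of 9 genes, 4 towards replicate 2 and 1 towards replicate 1, against 7 and 0 with total counts or DESeq2 size factors. Their median log2 ratio was 0.13, and 58.8% of all tested genes were called with TMM. Of the let-7 genes inside them, Mirlet7a-2 and Mirlet7c-1 were called higher in replicate 2 while Mirlet7e was called towards replicate 1 at -0.02 with TMM and towards replicate 2 at 0.02 with total counts and 0.06 with DESeq2 size factors. The median of these 3 was 0.37.

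Beyond the Mir125 genes, 3 miRNA genes have a mature arm with the seed CCCUGAG in the RefSeq table. Mir351, on chromosome X, had 122 CPM in replicate 2 and 116 CPM in replicate 1, with an exact binomial adjusted p of 0.80 and a log2 ratio of 0.03. Mir6394 and Mir6367 had 0 counts in each library, which allows up to 0.581 CPM in replicate 2 and 0.710 CPM in replicate 1. No gene outside the 6 shares the seed ACCCGUA in that table.

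The genes nearest in level were found from the distance between log2(CPM + 1) values over the 2 libraries, which rests on 2 points per gene. Mir433, at 14390 CPM in replicate 2 and 12447 CPM in replicate 1, was nearest to Mir99a, followed by Mir151. Mir138-1, at 4820 CPM in replicate 2 and 4244 CPM in replicate 1, was nearest to Mir100, followed by Mir30a. The distances were 0.06 for Mir433 and 0.04 for Mir138-1. Mir99b had no gene so close, with Mir320 at a distance of 0.40 and Mir98 at 0.51. Mir125a was likewise 0.55 from Mir191 and 0.57 from Mir149. The nearest genes were Mir431 and Mir3099 for Mir125b-1, at 0.16 and 0.31, and Mir665 and Mir145a for Mir125b-2, at 0.24 and 0.29.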

How the data were processed

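MicroRNA sequencing of left cerebral cortex gave 1 table per library of raw read counts per miRNA gene, which the authors deposited without normalization, on mm10 with GENCODE M21 per the records beside the files. The column for the gene's own strand was used. Aligner, counter and trimming: not given in the sources used here. Among the reads, rows naming no gene, including reads mapping to several places, made up 67.6% in replicate 2 and 67.4% in replicate 1 and were left out of library sizes and tests. All table IDs matched M21 genes. The 2 libraries form 1 group, so no edgeR quasi-likelihood contrast was possible, and p-values set the difference between these samples, which may be technical, against counting error only. TMM factors came from edgeR 4.0.16 in R 4.3.3 on genes summing to 10 counts or more, and exact binomial tests from SciPy 1.17.1. Alternatives were DESeq2 1.42.0 size factors, total counts, the unstranded column, filters of 1 and 100 counts, a pseudocount of 5, other denominators, hairpin length, edgeR's exact test with the biological coefficient of variation (BCV) set to 0.1, and each library alone. The binomial test was tested on simulated data with known answers. Members, lists and tests were chosen with earlier results of these data known. Named genes were the 6 members, their let-7 neighbours, genes sharing a main-arm seed, the 2 genes nearest in level and miRNA genes opposite a member (none). Other genes were named after their values were seen.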

Additional observations from a re-analysis of the deposited data

Results flagged for a closer look

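Reads mapping to several places lie outside the measure used here and are far above the 3 counts that a count of 0 allows, as any such library total would be. They numbered 6290303 in replicate 2 and 5244644 in replicate 1, or 39.4% and 40.4% of all reads in the tables. The tables do not say which of these reads came from miR-125b, let-7a or let-7c.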

How the results depend on the processing

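All 6 genes were called under DESeq2 size factors, where 313 of 546 tested genes were called, total counts (317 of 546), counts on either strand (290 of 518), a filter of 1 count (324 of 775) and one of 100 counts (258 of 326). These settings could hardly change the calls, since most genes at this depth are called and none of the 6 has counts on the opposite strand. They are therefore no sign of stability. The log2 ratio of Mir99b ranged from 1.18 to 1.25 and that of Mir125a from -0.94 to -0.87. With the BCV fixed at 0.1, edgeR's exact test called 3 of the 6, by its construction, which adds variation beyond counting error. With all reads as the denominator, the 6 genes took 1.08%, and Mir99b had 1528, Mir125a 3060.2, Mir99a 4434, Mir125b-2 73.9, Mir100 1455 and Mir125b-1 296 per 1000000 reads, since that total also holds reads outside miRNA genes. Counted on either strand, where genes overlapping another miRNA gene lose reads, the share was 3.59%, with Mir99a at 14671 CPM and Mir100 at 4813 CPM. Mirlet7e had 0 counts in that column, so the ratios of Mir99b and Mir125a to it had no value there. Divided by hairpin length, Mir99a stood at 17141. Either library alone lies within 1 SD of the mean by construction and says nothing about stability, and comparisons between libraries need both. No paired analysis was possible because there is 1 group. Precision is limited both by counting and by the number of libraries, 2.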
